A study of Mus musculus with 7 samples.

Results

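Chromosome 19 is the smallest autosome of the mouse and is densely packed with genes. The genes described here are those on chromosome 19 of the mouse genome (build mm10) that had at least 0.5 CPM (a count divided by the total of its library and put on a common scale) in 3 or more of 7 RNA-seq libraries. A set of 15 genes named in the rule was left out, of which 10 passed the same filter. This gave 423 member genes out of 433 chromosome 19 genes that passed, 783 chromosome 19 genes in the files and 12303 genes tested across the genome. The members were chosen by measured values, namely their CPM and their deviation from the median of the 7 libraries, so those values are given as a description and without a test. At the edge of the filter, the third-highest level was 0.551 CPM for the members Hoga1 and Plaat3, and 0.492 and 0.482 CPM for C030016D13Rik and Actn3, which lay just outside.

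The libraries came from cultured cells of end-stage lymphoma taken from male C57BL/6 mice. The cells of all 7 libraries carried the Eµ-Myc transgene, in which an immunoglobulin enhancer drives the Myc oncogene in the B cell lineage. The wild-type group (Smchd1 +/+) had 3 libraries and the Smchd1 null group, homozygous for the MD1 allele, had 4. Batch 1 held wild-type replicate 1 alone, read from a single end, whereas the other 6 libraries were read from both ends in batch 2. Whether each library stands for a separate mouse was not stated, so the p-values measure the spread between these libraries, which may be partly technical.

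Smchd1 encodes a chromatin protein related to the structural maintenance of chromosomes family, and it is known for its part in silencing the inactive X chromosome, imprinted genes and clustered protocadherins. The gene itself lies on chromosome 17 and is not a member. Chromosome 19 carries well-known regulators of growth and of cell identity, among them the menin gene Men1, the Myc antagonist Mxi1, the cohesin subunit gene Smc3 and the abundant nuclear RNA Malat1. By annotation, 397 of the members were protein-coding genes, 16 were long non-coding RNA genes, 9 were pseudogenes and 1 was a small nucleolar RNA gene. They covered the chromosome from position 3259076 to 61305295.

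Promoters of 4 members are shown as examples of the patterns described further on. Rcor2 and Smc3 were lower in Smchd1 null than in every wild-type library, Best1 was close to undetected in Smchd1 null samples, and Malat1 was raised in only a part of the wild-type group. Each line gives the 250 bases before the annotated start of transcription, on the strand of the gene (RefSeq sequences, GRCm38.p6), and capitals mark the letters CACGTG, an E-box of the kind to which Myc and Max bind.
Rcor2, chr19:7267144-7267393, plus strand: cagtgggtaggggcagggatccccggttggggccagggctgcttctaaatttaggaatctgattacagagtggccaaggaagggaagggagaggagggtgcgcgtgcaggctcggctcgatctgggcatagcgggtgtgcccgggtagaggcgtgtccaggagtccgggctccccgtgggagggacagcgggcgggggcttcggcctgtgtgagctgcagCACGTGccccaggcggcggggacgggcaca
Smc3, chr19:53600146-53600395, plus strand: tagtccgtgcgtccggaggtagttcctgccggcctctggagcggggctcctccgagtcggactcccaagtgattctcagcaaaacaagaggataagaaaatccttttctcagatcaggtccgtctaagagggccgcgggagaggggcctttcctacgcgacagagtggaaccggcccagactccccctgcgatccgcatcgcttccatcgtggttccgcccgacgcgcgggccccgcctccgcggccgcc
Best1, chr19:10001634-10001883, minus strand: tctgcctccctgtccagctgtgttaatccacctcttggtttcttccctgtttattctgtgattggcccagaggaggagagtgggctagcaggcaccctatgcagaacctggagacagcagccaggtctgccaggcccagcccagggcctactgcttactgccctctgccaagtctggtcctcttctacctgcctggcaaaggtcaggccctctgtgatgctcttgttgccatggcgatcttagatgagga
Malat1, chr19:5802673-5802922, minus strand: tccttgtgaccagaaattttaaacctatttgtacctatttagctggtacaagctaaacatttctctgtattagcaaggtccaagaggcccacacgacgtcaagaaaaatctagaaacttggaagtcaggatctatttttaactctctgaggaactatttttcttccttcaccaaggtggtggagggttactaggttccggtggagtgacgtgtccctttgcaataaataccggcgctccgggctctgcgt
The Rcor2 window held 1 CACGTG, which starts 30 bases before the start of transcription, and the other windows held 0. Windows of Smc3 and Rcor2 were rich in CG dinucleotides, with 26 and 17, against 8 for Malat1 and 1 for Best1. The motif reads the same on both strands. It occurred in 31 of 458 windows from the 350 members found in the promoter table, or 6.77%, and in 6.02% of all 32851 windows of the same length. Among the windows of members that were lower in Smchd1 null samples by the test described further on, it occurred in 9 of 181, or 4.97%. These matches describe letters and are not binding sites. Lrp5 is named without a promoter sequence.

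Sequencing depth ranged from 3626853 counts in wild-type replicate 1 to 7519549 in Smchd1 null replicate 4. The level that 3 counts represent, taken as the floor of detection, ranged from 0.399 to 0.827 CPM. This floor covers counting error only. Smchd1 was at 219 to 248 CPM in the wild-type and 22.7 to 28.7 CPM in the Smchd1 null libraries, so no library went against its label. Sample weights, which give less influence to more variable libraries, were lowest for wild-type replicate 1 (0.246) and Smchd1 null replicate 4 (0.249) and highest for wild-type replicates 2 and 3 (3.785 and 3.059). Those 2 libraries were also much more alike than any other pair, with a chi-square per degree of freedom of 3.955 over gene counts, where the other pairs had 17.53 to 69.25. They differed by more than counting noise alone and were kept as 2 samples, but such a difference could also lie between 2 preparations of 1 culture, and results with both summed are given beside the test. All 9 B cell markers had counts in some library, but their summed level ran from 1222 to 1561 CPM in the wild-type and from 644 to 3050 CPM in the Smchd1 null group, where Pax5, a defining factor of B cells, was at 16.6 CPM in replicate 4 and 64.9 to 84.9 CPM in replicates 1 to 3. The T cell list summed to 17.6 to 61.2 CPM and 1.285 to 67.7 CPM in the same order of groups, with Cd3e and Cd8a at 0 in every library. Myeloid markers summed to at most 27.1 CPM and red cell markers to at most 0.532 CPM. Endothelial markers, mostly Pecam1, summed to 47.7 to 70.3 CPM in the wild-type and 63.3 to 223.4 CPM in the Smchd1 null group. The part of these markers in the results was not tested. In bulk RNA, fewer cells of a type and less RNA per cell cannot be told apart.

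Expression of chromosome 19 as a whole was raised in wild-type replicates 2 and 3 and in no other library. The members took up 4.91% and 5.36% of all counts in these libraries, 3.75% in wild-type replicate 1, and 3.62%, 3.55%, 3.51% and 3.57% in Smchd1 null replicates 1 to 4. The deviation of a gene was its log2 CPM in a library minus its median over the 7 libraries. The median deviation over the 423 members was 0.36 in wild-type replicate 2 (quartiles 0.09 and 0.63) and 0.50 in wild-type replicate 3 (quartiles 0.26 and 0.76), which correspond to 1.28-fold and 1.42-fold. In wild-type replicate 1 it was -0.02 (quartiles -0.40 and 0.15). Smchd1 null replicates 1 to 4 had median deviations of -0.02, -0.06, -0.08 and -0.14. The genes of the other autosomes had a median deviation of 0 in every library.

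**Figure D1:**
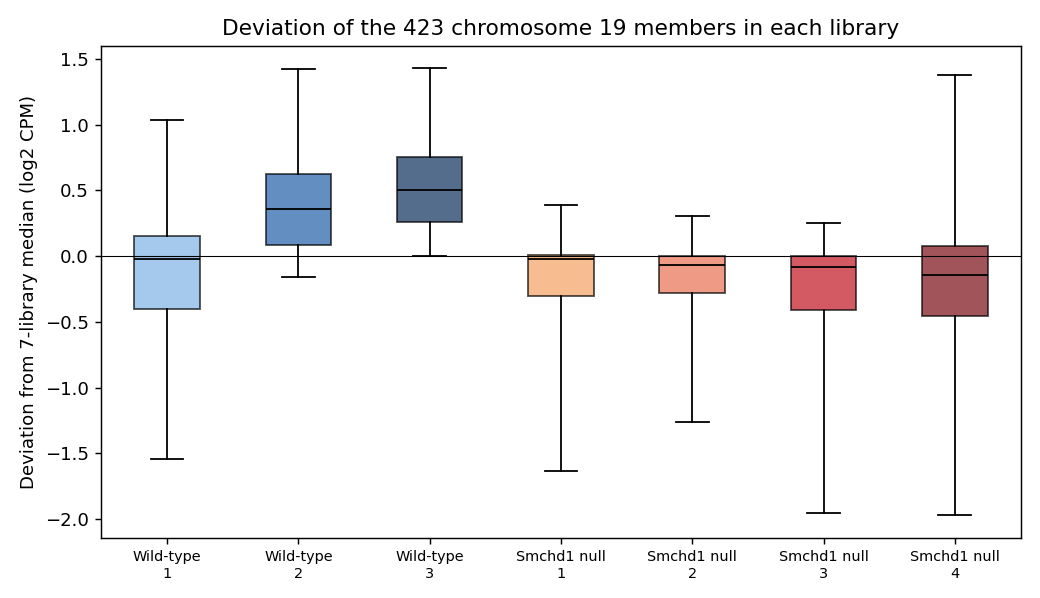
Deviation from the 7-library median (log2 CPM, y axis) of the 423 chromosome 19 members in each library (x axis). Boxes span the quartiles, the line inside is the median and whiskers reach the percentiles 5 and 95. The boxes of wild-type 2 and 3 lie above 0, with medians of 0.36 and 0.50, and the other 5 medians lie between -0.14 and -0.02.

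The higher level was shared by most members rather than carried by a few. A deviation above 0 was found for 80.6% of members in wild-type replicate 2 and 89.6% in wild-type replicate 3, against 35.2% in wild-type replicate 1 and 18% to 30% in the Smchd1 null libraries. Wild-type replicate 3 was the highest of the 7 libraries for 230 members (54.4%), where it was highest for 9.22% of genes on the other autosomes. Both replicates lay above all other 5 libraries for 222 members, or 52.5%, against 11.5% of all genes tested and 10.1% of genes on the other autosomes. A deviation of at least 0.5 was reached by 145 members in wild-type replicate 2 and 215 in wild-type replicate 3. The mean of the library medians was 0.28 ± 0.27 (SD, n = 3) in the wild-type and -0.08 ± 0.05 (SD, n = 4) in the Smchd1 null group, and the wild-type SD shows how far replicate 1 lay from the other 2 libraries of its group.

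Comparing libraries in pairs gave the same picture without a common reference. On chromosome 19 the median log2 difference from wild-type replicate 1 was 0.47 for wild-type replicate 2 (1.39-fold, 79.4% of members higher) and 0.63 for wild-type replicate 3 (1.55-fold, 83.2% of members higher). For the 4 Smchd1 null libraries it lay between -0.12 and 0.0025. Against wild-type replicate 3, the Smchd1 null libraries had median differences of -0.66 to -0.62, and against wild-type replicate 2 of -0.55 to -0.48. The 2 raised libraries themselves differed by 0.13 on chromosome 19, with 76.1% of members higher in replicate 3. Over the other autosomes each of these median differences was within 0.03 of 0. Wild-type replicates 2 and 3 were of the same batch and read layout as the Smchd1 null libraries, so the difference from that group was present within batch 2.

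The higher level extended over the whole chromosome. In windows of 5 Mb, wild-type replicate 2 had a median deviation above 0 in 13 of 13 windows (0.03 to 0.53), as did wild-type replicate 3 (0.31 to 0.69), which was the highest library in 12 of them. The lowest value for wild-type replicate 2 came from the window of 25 to 30 Mb, which held 22 members, and its highest from 20 to 25 Mb, which held 13. Wild-type replicate 1 ranged from -0.26 to 0.06 over the same windows. Among Smchd1 null libraries the window medians ran from -0.46 to 0.04. The lowest belonged to replicate 4 at 30 to 35 Mb, where 14 members lay. In windows of 10 Mb the medians were 0.30 to 0.39 in wild-type replicate 2 and 0.31 to 0.53 in wild-type replicate 3.

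**Figure D2:**
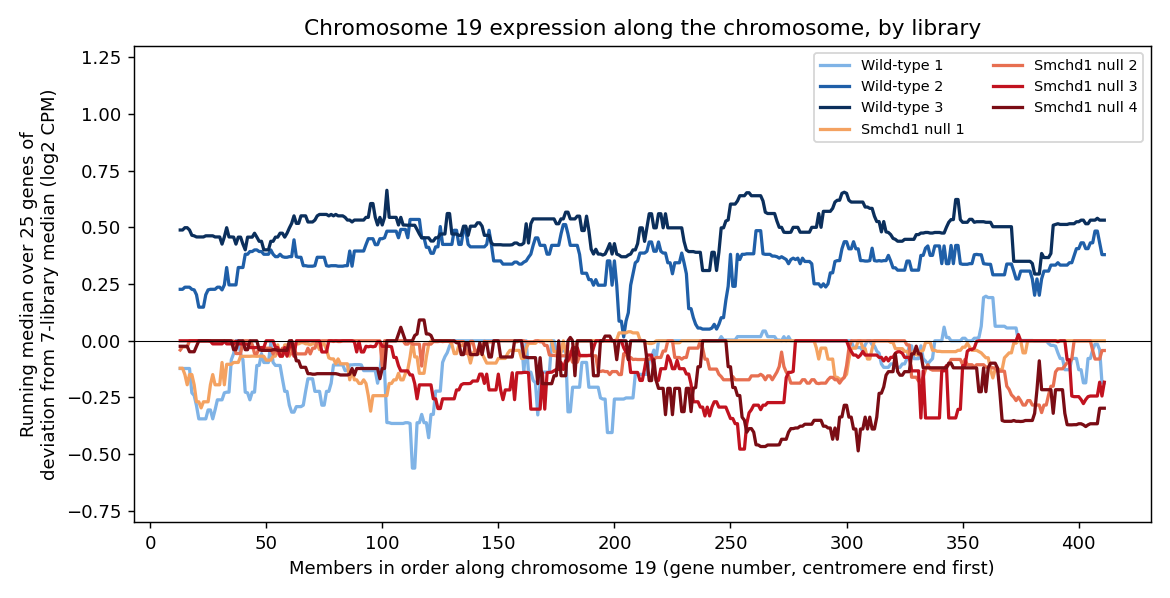
Running median over 25 neighbouring members (y axis, log2 CPM minus the 7-library median) against the order of members along chromosome 19, starting at the centromere end (x axis), with 1 line per library. The lines of wild-type 2 and 3 run above 0 over the whole chromosome and the other 5 lie near or under it.

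Weakly and strongly expressed members were both affected. With the members split into 4 groups of similar size by mean CPM, the median deviation in wild-type replicate 2 was 0.42, 0.38, 0.34 and 0.34 from the lowest to the highest group, and 0.59, 0.51, 0.49 and 0.46 in wild-type replicate 3. The lowest group had mean levels of 0.281 to 10.3 CPM and the highest 108 to 1456 CPM.

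Chromosome 19 stood first among the 19 autosomes for both of these libraries. The next highest autosome was chromosome 12 in wild-type replicate 2, with a median deviation of 0.25, and chromosome 1 in wild-type replicate 3, with 0.10. Other libraries stood apart on other autosomes. Wild-type replicate 1 reached -0.72 on its lowest autosome, Smchd1 null replicates 1 and 2 reached -0.37 and -0.41 on theirs, and Smchd1 null replicates 3 and 4 reached 0.37 and 0.40 on their highest. On chromosome 19 itself, Smchd1 null replicates 3 and 4 had their lowest values of all autosomes.

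**Figure D3:**
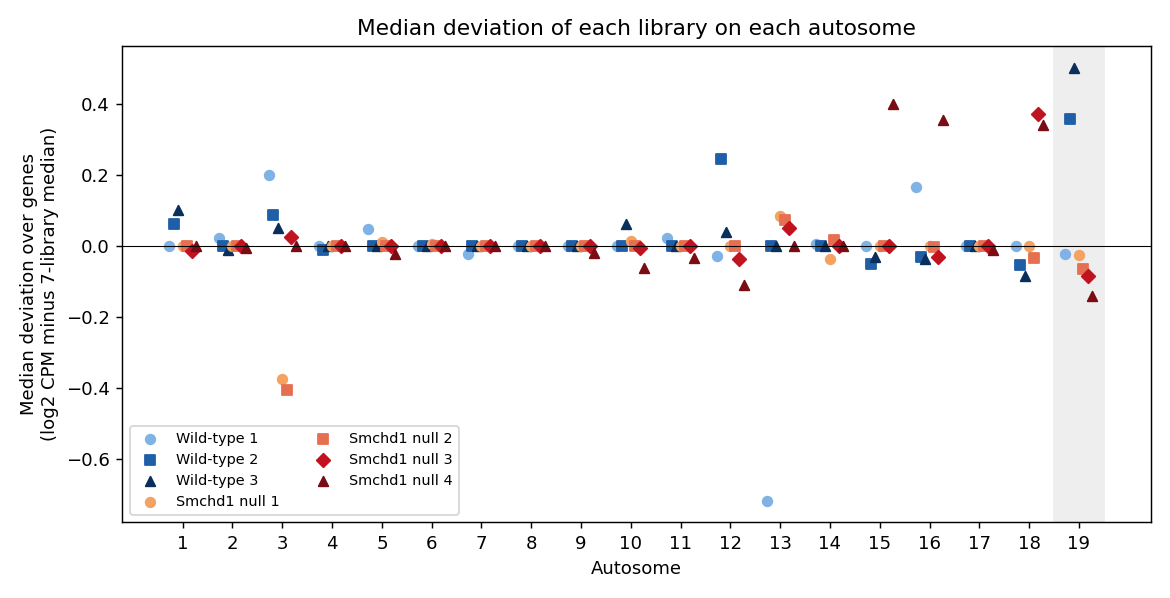
Median deviation from the 7-library median (y axis, log2 CPM) over the genes of each autosome (x axis), with 1 symbol per library and chromosome 19 shaded. Wild-type 2 and 3 stand apart from the other 5 libraries on chromosome 19, at 0.36 and 0.50, while other autosomes have other libraries that stand apart.

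Differential expression (DE) between the Smchd1 null and wild-type groups was then examined with voom and sample weights in limma, fitted to all 12303 genes. A gene was called DE at a false discovery rate (FDR) under 0.05, and log2 fold changes are Smchd1 null minus wild-type. Of the 423 members, 165 (39.0%) were DE and lower in Smchd1 null samples, where 6.85% of all genes tested were, and 2 (0.473%) were DE and higher, where 5.06% were. Among the 19 autosomes the share of lower genes was the highest, ahead of 17.9% on chromosome 1, and the share of higher genes was the lowest. The median log2 fold change was -0.56 over members and -0.01 over all genes tested, and 389 members (92.0%) had a negative value, against 50.7% of all genes. Calls rose with level, although the median log2 fold change was -0.94 in the lowest of the 4 groups by mean CPM and -0.49 in the highest. From the lowest to the highest group, 21, 39, 46 and 59 members were DE and lower. The median among the 165 lower genes was -0.77. Of these, 54 had a log2 fold change of -1 or less and 16 of -2 or less. Chromosome 19 was chosen with results of these libraries known, so these counts describe it and are not independent evidence.

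The size of the shift and the number of calls depended on wild-type replicates 2 and 3. When both were left out, the median log2 fold change was -0.05, with 53.7% of members negative. Wild-type replicate 1 is then the only wild-type library and is assumed to vary like the Smchd1 null libraries, so few genes could pass the threshold. The fit gave 3 lower members (Carnmt1, Rps15a-ps2 and E030024N20Rik) and 1 higher (Fermt3). With the 2 libraries summed into 1 sample, limma called 0 members and the median was -0.36, with 67 members lower at an unadjusted p under 0.05. Without wild-type replicate 2 alone, limma called 0 members and the median was -0.36, with 60 members lower at an unadjusted p under 0.05. Without wild-type replicate 3 alone it also called 0, with a median of -0.29 and 51 members lower at an unadjusted p under 0.05. With the 2 libraries summed, or with either left out, limma called 1 lower and 0 higher among all 12303 genes tested. The loss of calls was thus not particular to chromosome 19. Leaving out wild-type replicate 1, which restricts the fit to batch 2, gave 187 lower (44.2%, against 8.14% of all genes tested) and 2 higher. Of these lower members, 160 were among the 165. Tests that weight all libraries equally called fewer members. Voom alone and the quasi-likelihood test of edgeR each called 0, with 127 and 119 members lower at an unadjusted p under 0.05. Over all 12303 genes tested, voom alone called 7 lower and 5 higher, and edgeR 5 lower and 7 higher. DESeq2 called 33 members lower (7.8%, against 1.55% of all genes tested) and 1 higher. When every autosome was first centred in each library on its own median deviation, limma called 35 lower and 15 higher members. All 35 were among the 165, and they made up 8.27% of members, against 4.71% of all genes tested. Over all genes tested this fit called 579 lower and 612 higher. Centring moves all members of a chromosome alike within a library, so a more even split of lower and higher calls follows from its construction.

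Every Smchd1 null library lay below every wild-type library for 115 members (27.2%, against 6.85% of all genes tested) and above for 2 members (0.473%, against 6.35%). Wild-type replicate 1 exceeded all Smchd1 null libraries for 150 members, or 35.5%, and for 30.1% of genes on the other autosomes. The corresponding shares were 65.2% and 19.1% for wild-type replicate 2, and 72.1% and 19.1% for wild-type replicate 3. Of the 165 lower members, wild-type replicate 1 was above the Smchd1 null range for 86, within it for 62 and below it for 17. The groups were separated for 83 of the 165.

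**Figure D4:**
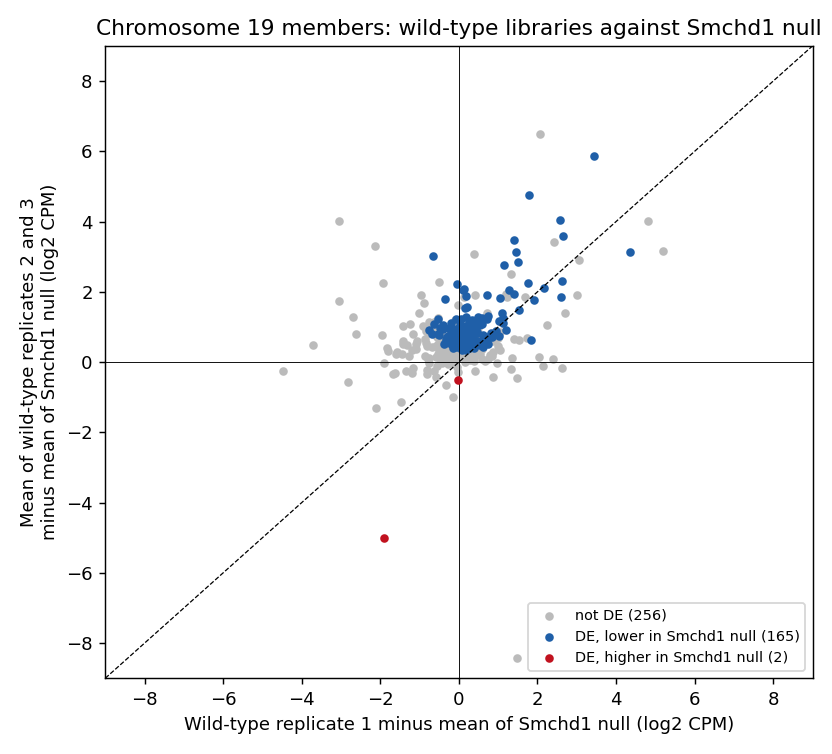
Each point is a chromosome 19 member. The x axis gives wild-type replicate 1 minus the mean of the 4 Smchd1 null libraries, and the y axis the mean of wild-type replicates 2 and 3 minus the same mean, both in log2 CPM, and the dashed line marks equal values. The 165 members that were DE and lower lie above 0 on the y axis but on both sides of 0 on the x axis, and the 2 that were DE and higher lie below 0 on the y axis.

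Genes that restrain or direct growth and cell death held the largest share of calls among the lists of more than 3 members. Of 20 members in this list, 16 were DE and lower in Smchd1 null samples (80.0%, against 39.0% of all members and 6.85% of all genes tested), 0 were higher, and the median log2 fold change was -0.81 against -0.56 over all members. The lists were chosen with earlier results of these data known and were not matched for expression level, with which calls rose. Their shares are therefore a description and not evidence about a class of genes. Mxi1, whose product competes with Myc for Max (Entrez 17859, position 53310128 to 53373293), was at 85.5, 178 and 189 CPM in the wild-type and 82.5, 67.6, 84.6 and 84.8 CPM in the Smchd1 null libraries (log2 fold change -1.23, SE 0.16, limma FDR 0.00969). Its wild-type replicate 1 thus lay just above the highest Smchd1 null library, and the other wild-type libraries far above. Without wild-type replicates 2 and 3 the log2 fold change of Mxi1 was -0.099. Men1, which encodes menin, overlapped between the groups. Wild-type replicate 1 had 73.6 CPM, which was under all 4 Smchd1 null libraries (105 to 129 CPM), whereas wild-type replicates 2 and 3 had 199 and 196 CPM. The limma FDR of Men1 was 0.0335 with a log2 fold change of -0.76, which turned to 0.68 without wild-type replicates 2 and 3.

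Other genes of this list were lower than each wild-type library. Lrp5, a Wnt co-receptor, was at 37.2, 109.6 and 118.6 CPM in the wild-type and 27.1, 19.9, 5.097 and 10.5 CPM in the Smchd1 null libraries (log2 fold change -2.83, SE 0.44, limma FDR 0.0122). Hif1an, the hydroxylase that restrains hypoxia-inducible factor, was even within groups, at 86.6, 86.9 and 90.1 CPM against 61.6, 58.0, 59.2 and 67.3 CPM (log2 fold change -0.56, SE 0.09, limma FDR 0.0118). Gstp1, a glutathione transferase, was highest in wild-type replicate 1, at 166 CPM, with 120 and 141 CPM in wild-type replicates 2 and 3 and 58.5 to 101.6 CPM in the Smchd1 null group (limma FDR 0.0238). For Hif1an and Gstp1, wild-type replicate 1 was thus not among the Smchd1 null libraries. Sufu, a brake on Hedgehog signalling, Gnaq, Sgms1, Frat2 and Rps6kb2 were also lower and separated the groups. Pdcd4, Frat1, Shoc2 and Tcf7l2 were lower but overlapped. The 4 that were not DE were Cfl1, Mta2, Tle4 and Brms1. The median of the list was -0.17 without wild-type replicates 2 and 3, and with centred autosomes 4 of the 20 were called lower, among them Gnaq, Lrp5 and Mxi1.

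**Figure D5:**
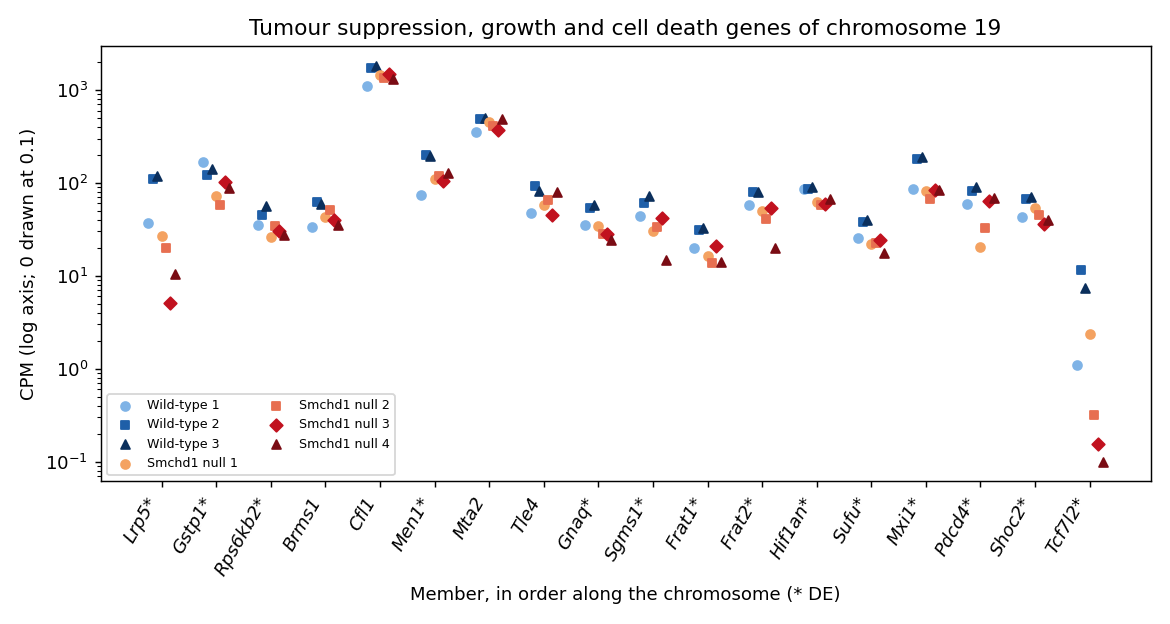
CPM (log y axis, with 0 drawn at 0.1) of 18 of the 20 members that take part in tumour suppression, growth and cell death, in order along chromosome 19 (x axis), with 1 symbol per library and an asterisk for the 14 of them that were DE. Wild-type 2 and 3 lie above the Smchd1 null libraries for most genes. Wild-type 1 often lies nearer to the Smchd1 null libraries, as for Mxi1, where its 85.5 CPM is just above the highest of them.

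Most of the other lists lay nearer to the chromosome as a whole, in which 39.0% of members were lower and the median log2 fold change was -0.56. Chromatin and transcription genes had 12 of 24 members (50.0%) DE and lower and 0 higher, with a median of -0.55. Rcor2, a corepressor partner of histone deacetylases (Entrez 104383, position 7267394 to 7275225), was at 115, 176 and 142 CPM in the wild-type and 39.5, 61.8, 28.3 and 17.6 CPM in the Smchd1 null libraries. All 3 wild-type libraries were well above the Smchd1 null range, and the log2 fold change was -1.92 (SE 0.27, limma FDR 0.0107). It was -1.41 without wild-type replicates 2 and 3 and -1.45 with centred autosomes (limma FDR 0.0254). Klf9, a zinc finger repressor, was likewise separated, at 25.9, 34.5 and 40.5 CPM against 19.7, 14.3, 14.2 and 12.5 CPM (log2 fold change -1.25, limma FDR 0.0109). In the histone methyltransferase gene Kmt5b and the demethylase gene Kdm2a, wild-type replicate 1 lay among the Smchd1 null libraries. Kdm2a was at 134 CPM in wild-type replicate 1, within the Smchd1 null range of 121 to 146 CPM, and at 234 and 252 CPM in wild-type replicates 2 and 3. Dpf2, Rfx3, Pprc1, Pcgf6, Taf5 and Ddb1 were lower and separated the groups, while Zfp91 and Ldb1 were lower and overlapped. With centred autosomes 4 genes of the list were called lower (Ddb1, Klf9, Rcor2 and Kdm2a).

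Genes of DNA replication, repair and mitosis had 11 of 26 members (42.3%) DE and lower and 0 higher, near the share over all members, with a median log2 fold change of -0.45. Ddb1, a subunit of a ubiquitin ligase that recognises damaged DNA (Entrez 13194, position 10605568 to 10629828), was the most abundant of them, at 918, 1094 and 1162 CPM in the wild-type and 698, 649, 662 and 560 CPM in the Smchd1 null libraries (log2 fold change -0.76, SE 0.09, limma FDR 0.00737). Smc3, a core subunit of cohesin (Entrez 13006, position 53600396 to 53645831), was even across the wild-type group at 355, 392 and 376 CPM, and lower in the Smchd1 null libraries at 268, 259, 310 and 249 CPM. Its log2 fold change was -0.50 (SE 0.09, limma FDR 0.0172), and it was -0.04 (limma FDR 0.852) once the autosomes were centred. Smc5, another member of the family to which Smchd1 is related, was at 99.8, 160 and 156 CPM against 91.5, 81.3, 93.1 and 70.8 CPM (log2 fold change -0.86, limma FDR 0.0109). The kinesin genes Kif11 and Kif20b, and Incenp, Cdca5, Slf2 and Rnaseh2c, were lower and separated the groups, and Mms19 and Dclre1a were lower and overlapped. Nolc1 was not DE (limma FDR 0.189), at 982, 851 and 834 CPM against 601 to 819 CPM. Centring the autosomes left 1 lower gene (Ddb1) and gave 1 higher gene (Fen1) in this list.

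RNA processing, translation and ribosome assembly had the smallest median shift, -0.30, with 11 of 29 members (37.9%) DE and lower and 0 higher, again near the share over all members. Eef1g, a subunit of an elongation factor, was at 793, 787 and 931 CPM in the wild-type and 487, 574, 514 and 442 CPM in the Smchd1 null libraries (log2 fold change -0.69, SE 0.11, limma FDR 0.0132). Eif3a, the largest subunit of an initiation factor, was at 1198, 1463 and 1444 CPM against 1136, 1126, 1076 and 810 CPM (log2 fold change -0.40, SE 0.10, limma FDR 0.0351). Pdcd11, which takes part in ribosome assembly, was nearly constant in the wild-type group, at 299, 297 and 298 CPM, and at 155 to 234 CPM in the Smchd1 null group (limma FDR 0.0312). Sf3b2, Nxf1, Cpsf7, Npm3 and Tut1 were also lower and separated, whereas Rbm4, Hnrnpul2 and Eif1ad overlapped. With centred autosomes the median of the list was 0.16, with 0 lower and 2 higher genes (Rbm14 and Ccdc86).

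Mitochondrial genes had 10 of 27 members (37.0%) DE and lower and 0 higher, likewise near the share over all members, with a median log2 fold change of -0.41. Twnk, the mitochondrial DNA helicase gene, was at 150, 124 and 130 CPM in the wild-type and 99.2, 84.0, 106.7 and 92.6 CPM in the Smchd1 null libraries, with no overlap (log2 fold change -0.45, limma FDR 0.0336). Prdx3, a peroxiredoxin gene, also separated the groups, at 173, 198 and 204 CPM against 147 to 165 CPM (limma FDR 0.0347). Aldh18a1, needed for proline synthesis, did not. Wild-type replicate 1 had 170 CPM, with 407 and 382 CPM in wild-type replicates 2 and 3, and 182 to 331 CPM in the Smchd1 null group. Ndufv1, Ndufb8, Got1, Prdx5, Slc25a28 and Sfxn3 were lower with overlap, and Sfxn4 was lower without. Cox8a, the most abundant by mean CPM, was not DE (limma FDR 0.0813). Centring the autosomes turned the median of the list to 0.05 with 0 calls.

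Lymphocyte signalling and immunity had the fewest calls of the larger lists, with 4 of 25 members (16.0%) DE and lower (Nfkb2, Chuk, Map4k2 and Il33) and 0 higher, at a median log2 fold change of -0.52. Nfkb2, a subunit of the non-canonical NF-κB pathway, was at 29.8, 21.5 and 25.7 CPM in the wild-type and 7.849, 8.995, 13.1 and 27.0 CPM in the Smchd1 null libraries, where replicate 4 alone reached the wild-type range (log2 fold change -1.20, SE 0.25, limma FDR 0.0243). Chuk, the kinase that activates this pathway, was at 107, 181 and 203 CPM against 128, 113, 107.5 and 67.7 CPM (limma FDR 0.0287). The cytokine gene Il33 was barely detected, at 1.93, 0.820 and 0.733 CPM in the wild-type and 0.148 CPM or 0 in the Smchd1 null libraries. It passed the filter of 0.5 CPM through the wild-type libraries only. Its separation was thus fixed in advance, and its call is no evidence of a difference. Jak2, a cytokine receptor kinase, was not DE (limma FDR 0.449). Its level was 13.0 CPM in wild-type replicate 1 and 13.9 CPM in Smchd1 null replicate 3, whereas the other 5 libraries had 43.0 to 55.4 CPM. Ptprcap, a partner of the CD45 phosphatase, had a positive log2 fold change of 0.32 that did not pass the threshold (limma FDR 0.0915), at 147, 172 and 193 CPM against 252, 214, 225 and 193 CPM. With centred autosomes, 3 genes of this list were called higher (Ptprcap, Sipa1 and Dock8) and 1 lower (Il33). Without wild-type replicates 2 and 3 the median of the list was 0.07.

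Lipid metabolism genes had 7 of 15 members (46.7%) DE and lower and 0 higher, with a median log2 fold change of -0.81. Among the 7 is Stx5a, which encodes a SNARE of the Golgi rather than an enzyme of lipids (Entrez 56389). It was at 59.3, 77.4 and 84.4 CPM in the wild-type and 31.3, 40.3, 41.7 and 40.3 CPM in the Smchd1 null libraries (log2 fold change -1.08, SE 0.13, limma FDR 0.00665). Plcb3, a phospholipase gene, was separated too, at 47.4, 71.4 and 62.3 CPM against 23.1 to 46.4 CPM (limma FDR 0.0122). The desaturase gene Fads1 overlapped, with 33.4 CPM in wild-type replicate 1, 94.6 and 109.6 CPM in wild-type replicates 2 and 3, and 45.8, 50.6, 35.1 and 111 CPM in the Smchd1 null libraries. Its neighbour Fads2 varied far more and was not DE (limma FDR 0.304), at 3.584, 96.6 and 99.8 CPM against 65.6, 53.8, 2.008 and 103 CPM. Gpam, which starts triglyceride synthesis, was below the wild-type range of 220 to 231 CPM in every Smchd1 null library (44.6 to 189 CPM), at a limma FDR of 0.0578. Acsl5, the most abundant of the list, was at 278 to 377 CPM in the wild-type and 317 to 393 CPM in the Smchd1 null group (limma FDR 0.579).

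All 3 non-coding RNAs listed were DE and lower. Malat1, a nuclear RNA (Entrez 72289, position 5795690 to 5802672), was at 135, 441 and 414 CPM in the wild-type and 162, 199, 221 and 233 CPM in the Smchd1 null libraries. Wild-type replicate 1 was the lowest library of all, and the log2 fold change of -1.09 (SE 0.22, limma FDR 0.0219) turned to 0.59 without wild-type replicates 2 and 3. Neat1, its neighbour and the scaffold of paraspeckles, was at 85.2, 229 and 311 CPM against 33.6, 82.9, 50.7 and 197.5 CPM (log2 fold change -2.05, limma FDR 0.0187). Snhg1, a host of small nucleolar RNAs, separated the groups at 203, 262 and 258 CPM against 178, 189, 168 and 141 CPM (limma FDR 0.0172).

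A few further members stood above the Smchd1 null range in every wild-type library. Spindoc (Entrez 68229), singled out after its values were seen, was at 17.9, 15.6 and 15.8 CPM in the wild-type and 5.331, 4.176, 3.861 and 5.053 CPM in the Smchd1 null libraries. Its log2 fold change of -1.80 (SE 0.19, limma FDR 0.00398) was -1.93 without wild-type replicates 2 and 3 and -1.33 with centred autosomes (limma FDR 0.0138). Pygm, the muscle glycogen phosphorylase gene, was at 3.584, 9.021 and 8.794 CPM against 1.333, 1.124, 1.236 and 1.064 CPM (limma FDR 0.008). Best1, a chloride channel gene (Entrez 24115), was at 1.103, 7.217 and 5.569 CPM in the wild-type and at 0.296 CPM in Smchd1 null replicate 1, which is 2 counts, and 0 in the rest (limma FDR 0.0118). Hoga1, Plaat3, Asah2 and Sfxn4 completed the largest decreases that separated the groups, with wild-type levels between 0.551 and 5.716 CPM. At such levels the fitted fold change depends on the offset added to counts of 0, and none is given. Best1 and Hoga1 reached 0.5 CPM in the 3 wild-type libraries only. The filter thus fixed their separation in advance, and their calls are no evidence of a difference. Plaat3 was separated only narrowly, at 0.551 CPM (2 counts) in wild-type replicate 1 and 0.532 CPM (4 counts) in Smchd1 null replicate 4. The first of these values is under the floor of 3 counts, so the separation of Plaat3 is uncertain.

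The 2 members that were higher in Smchd1 null samples were Dmrt2 and Nutf2-ps1. Dmrt2, a developmental transcription factor gene (Entrez 226049, position 25672394 to 25679013), was at 0.551 CPM (2 counts), 0 and 0 in the wild-type and at 2.518, 4.015, 1.081 and 3.059 CPM in the Smchd1 null libraries (limma FDR 0.00852). Each Smchd1 null library was thus above each wild-type library, and the wild-type values were under the floor of 3 counts. With 0 counts in wild-type replicates 2 and 3, Dmrt2 could pass the filter of 0.5 CPM only through the Smchd1 null libraries. The filter thus favoured this direction, and the call of Dmrt2 is not taken as evidence of a difference. Nutf2-ps1, a pseudogene, was at 85.5, 58.9 and 58.8 CPM against 86.3, 84.5, 84.2 and 83.5 CPM (log2 fold change 0.51, SE 0.09, limma FDR 0.0163). Here wild-type replicate 1 matched the Smchd1 null group and wild-type replicates 2 and 3 were the lower ones, opposite to the chromosome as a whole. Reads of a pseudogene can be shared with its parent gene, so this level is uncertain.

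Some pseudogenes were high in wild-type replicate 1. It was the highest library for 4 of the 9 pseudogene members (44.4%), against 12.5% of all members and 26.1% of genes on the other autosomes. Rps15a-ps2 was at 72.5 CPM in this library and 9.349 to 14.2 CPM in the other 6, E030024N20Rik at 192 CPM and 60.7 to 78.8 CPM, and Gm20762 at 17.9 CPM and 2.814 to 4.942 CPM. Gm19505 was only just highest there, at 3.309 CPM against 3.089 CPM in Smchd1 null replicate 3. For the remaining pseudogenes, wild-type replicate 1 was at 0.715 to 1.12 times the median of the other libraries, so the class as a whole was not raised. This library was the only one read from a single end, and the part of the read layout in these values was not tested. Of the 3 members called lower without wild-type replicates 2 and 3, Rps15a-ps2 and E030024N20Rik are of this kind.

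Against the common shift, some members differed between libraries by far more than the chromosome did. Asrgl1, an asparaginase gene (Entrez 66514), had 0 counts in wild-type replicates 2 and 3, the libraries in which chromosome 19 was raised. Wild-type replicate 1 had 78.3 CPM, and the values were 35.3, 1.767, 72.8 and 113 CPM in the Smchd1 null libraries, and the gene was not DE (limma FDR 0.134). Nrxn2, a synaptic adhesion gene, was at 19.9 and 15.7 CPM in those wild-type libraries and 79.9 CPM in Smchd1 null replicate 4, and under 1 CPM in the other 4. The perforin-like gene Mpeg1, known from macrophages and mature B cells, reached 191 CPM in Smchd1 null replicate 4, with 16.1 to 27.6 CPM in 4 libraries, and 0.827 and 2.008 CPM in wild-type replicate 1 and Smchd1 null replicate 3. Gfra1, a receptor for glial cell-derived factors, was at 49.1, 21.8 and 33.0 CPM in the wild-type and 1.333, 15.4, 5.56 and 0 CPM in the Smchd1 null libraries, without overlap but with a limma FDR of 0.0832. Cpt1a, the entry enzyme of mitochondrial fatty acid oxidation, was highest in wild-type replicate 1, at 146 CPM against 11.7 to 77.3 CPM elsewhere. Slc35g1 was highest in Smchd1 null replicate 2, at 503 CPM against 84.1 to 229.5 CPM, and Myof was high in Smchd1 null replicates 1 and 4, at 35.7 and 37.4 CPM against 1.927 to 7.328 CPM. None of these 7 genes was DE.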

How the data were processed

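RNA-seq libraries of lymphoma cells, 3 wild-type and 4 Smchd1 null, were analysed from the tables the authors deposited. According to the labels and to the paper's methods, the authors called bases with CASAVA (version 1.8.2), aligned reads to mm10 with Subread and summarised them with featureCounts, which gave raw counts per Entrez gene. The deposited counts were not normalised or pooled. How reads were treated that map to several places, and whether strand was used, is not given in the sources used here, so levels of pseudogenes and overlapping genes are uncertain. The processing notes of the submitters also name edgeR (version 3.8.2) and limma (version 3.22.0).

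Positions and symbols came from the RefSeq table of GRCm38.p6, the same build as mm10, matched by Entrez identifier. A match was found for 25275 of 27179 genes, which held 98.24% of counts. CPM was computed from total counts. Deviations used log2 CPM with TMM library sizes and 0.5 added to each count. Genes that reached 0.5 CPM in at least 3 libraries were tested in R (version 4.3.3) with voomWithQualityWeights of limma (version 3.58.1), TMM factors from edgeR (version 4.0.16) and Benjamini-Hochberg adjustment over all genes tested, after the methods of the study. This takes the place of the quasi-likelihood test of edgeR, which was run as an alternative, as was DESeq2 (version 1.42.0). The procedure was tested on simulated data.

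The members and the gene lists were chosen with earlier results of these data known. Named genes were the 8 largest increases and 8 largest decreases among DE members that separated the groups, the DE members and the 2 most abundant members of each list, and, for each library, the 2 largest deviations in each direction among members with at least 5 CPM in 3 or more libraries. The members beside the filter edge and Jak2, Nfkb2, Smc3 and Malat1 were also named. Where fewer genes qualified, fewer were named, and some genes that the rule takes are not reported here. They stayed in every fit and count. Spindoc, E030024N20Rik, Gm20762, Nutf2-ps1, and the genes that only an alternative called, were added after their values were seen. Alternatives covered weighting, tool, normalisation, filter, reference, pseudocount of 2, bins, batch, the replicate block and the omission of each library.

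Replicate numbers 1 to 3 occur in both groups. Deviations from the group means correlated at -0.18 to 0.23 across genes for the 3 pairs with the same number, so the numbers were not taken to pair the samples.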

Additional observations from a re-analysis of the deposited data

Results flagged for a closer look

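In the Smchd1 null group, 111 values were screened for 1 library far from the other 3, by its gap to the nearest of them as a share of the group's whole range. This marked 10, where chance would mark about 5.6, since it marks about 1 group in 20. The wild-type group was too small to screen. Smchd1 null replicate 4 stood apart for 6 members. It was low for Pdcd11 at 7.236 log2 CPM (7.817 to 7.892 in the other 3 libraries), Eif3a at 9.623 (10.1 to 10.2), Slc25a28 at 4.849 (5.664 to 5.82) and Kmt5b at 5.352 (5.766 to 5.824). It was high for Slc3a2 at 8.589 log2 CPM (7.492 to 7.674) and for Hoga1 at -1.627 (-3.725 to -3.637), where the other libraries had 0 counts. Smchd1 null replicate 3 was low for Fads2 at 1.082 log2 CPM (5.753 to 6.654) and for Jak2 at 3.827 (5.389 to 5.581). Smchd1 null replicate 2 was low for Mxi1 at 6.082 log2 CPM (6.369 to 6.426). Best1 was at -1.403 log2 CPM in Smchd1 null replicate 1 (-3.949 to -3.637), where 2 counts were enough to mark it.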

How the results depend on the processing

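The median deviation of each library moved by less than the pooled SD of 0.18 under all alternatives but 1. With the wild-type median as reference it became -0.46, 0 and 0.11 in wild-type replicates 1 to 3 and -0.47, -0.50, -0.54 and -0.55 in Smchd1 null replicates 1 to 4, since 2 of the 3 reference libraries are the raised ones. The order of the 2 raised libraries and the other 5 stayed. The number of DE members, 165 lower and 2 higher, depended on the weighting and on the libraries. Voom alone and the quasi-likelihood test of edgeR gave 0 and 0, with 0.0569% and 0.0406% of all genes tested lower. Block weights gave 67 lower (15.8%, against 2.74% of all genes tested) and 2 higher. DESeq2 gave 33 lower (7.8%, against 1.55%) and 1 higher. A minimum of 10 counts in every library left 346 members, with 190 lower (54.9%, against 9.85% of all genes left) and 1 higher. Leaving out 1 library at a time gave 0 to 187 lower and 0 to 2 higher, with a median log2 fold change of -0.60 to -0.29. Where the lower count was 0, without wild-type replicate 2 or 3, it was 1 among all genes tested. The lower counts were 54, 21, 108 and 145 without Smchd1 null replicates 1 to 4. These were 12.8%, 4.96%, 25.5% and 34.3% of members, against 1.94%, 0.918%, 4.62% and 6.47% of all genes tested. Summing wild-type replicates 2 and 3 gave 0 and 0, against 1 lower and 0 higher among all genes tested, with a median of -0.36. With the replicate block the fit called 16 lower (3.78%, against 1.1% of all genes tested) and 1 higher, with a median of -0.50. Since the numbers did not pair the samples, calls lost under the block say nothing of effect size. Batch as a covariate gave 186 lower (44%, against 8.12% of all genes tested) and 2 higher. Since batch 1 held wild-type replicate 1 alone, this fit in effect repeats the one without that library and is no separate check.

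Alternatives added after seeing the data changed more. Centred autosomes gave 35 lower (8.27%, against 4.71% of all genes tested) and 15 higher and a median of -0.091. Since centring moves all members alike, genes with a smaller fold than the chromosome cross 0 by construction. Among named DE members these were Cdca5 (0.029), Mms19 (0.00936), Sf3b2 (0.12), Hnrnpul2 (0.085), Cpsf7 (0.089), Pdcd11 (0.036), Eif3a (0.061), Ndufv1 (0.011), Got1 (0.052), Ndufb8 (0.029), Twnk (0.022), Prdx3 (0.10) and Pprc1 (0.10). Without wild-type replicates 2 and 3, where 1 wild-type library is left and few genes could pass, the fit gave 3 lower and 1 higher and a median of -0.049. Among named DE members the sign then turned for Rbm4 (0.21), Hnrnpul2 (0.17), Ndufv1 (0.22), Prdx5 (0.24), Aldh18a1 (0.36), Got1 (0.18), Slc25a28 (0.38), Ndufb8 (0.010), Chuk (0.12), Men1 (0.68), Shoc2 (0.13), Kmt5b (0.035), Zfp91 (0.26), Ldb1 (0.11), Fads1 (0.58), Osbp (0.18) and Malat1 (0.59), and for Rps15a-ps2 (-2.676) and E030024N20Rik (-1.29), which became DE. Over all named members and alternatives, 878 values lost the call with the same sign, 14 gained it, and 32 that were called in either fit changed sign. Depth limits members near the floor of 0.399 to 0.827 CPM, where 1 to 3 counts decide a value.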
